A study of Homo sapiens with 24 samples.

Results

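The 10 genes HSPA5, HSP90B1, HYOU1, SDF2L1, DNAJB9, PDIA4, CRELD2, XBP1, HERPUD1 and SEL1L encode chaperones, folding enzymes and degradation factors of the endoplasmic reticulum (ER) and a transcription factor of the unfolded protein response. They were matched by gene symbol, and all 10 were found among the 61251 genes of the table. The choice was made with earlier results of these data known, so shares set against all genes are descriptive. RNA-seq levels were deposited as FPKM (fragments per kilobase of gene, scaled to the mapped fragments of the library) for 24 libraries of KYSE450, an established human oesophageal squamous carcinoma line. The 6 chemoresistant DTP libraries came from KYSE450DDP cells in the DTP (drug-tolerant persister) state, and the 6 chemoresistant libraries from KYSE450DDP cells. The 6 parental DTP libraries came from KYSE450 cells in the DTP state, and the 6 parental libraries from KYSE450 cells. All 4 groups carry the genotype label WT and were grown in RPMI-1640 medium with 10% FBS. The labels give no treatment for any group and no dose or time behind resistance and persistence. No agent is spelled out beyond the letters DDP in the name KYSE450DDP, which the labels do not explain. Nor do the labels say whether the chemoresistant cells are a clone or a pool, or whether libraries came from separate cultures. The p-values therefore measure the spread between libraries only.

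Proteins that enter the ER are folded there by HSPA5 (BiP) and its helpers, joined by disulphide bonds and, where folding fails, sent back to the cytosol for degradation. When unfolded proteins accumulate, the membrane sensors IRE1 (encoded by ERN1), ATF6 and PERK (encoded by EIF2AK3) switch on the unfolded protein response. ATF6 and the spliced form of XBP1 raise chaperone and degradation genes, largely through promoter elements that pair a CCAAT box with a CCACG sequence, and PERK acts through ATF4, which amino acid shortage and other stresses also induce.

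**Figure D1:**
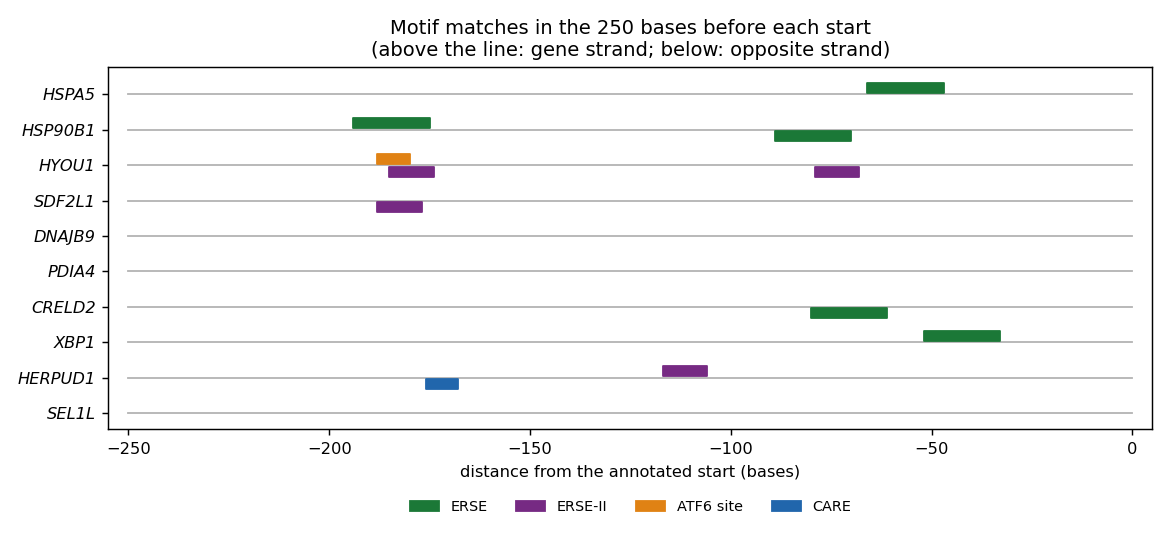
Matches of 4 promoter motifs in the 250 bases before the RefSeq start of each gene; the x axis is the distance from that start in bases, and bars above and below each line are matches on the gene's own and on the opposite strand. ERSE or ERSE-II matches lie before 7 of the 10 genes, with a pair each for HSP90B1 and HYOU1, and DNAJB9, PDIA4 and SEL1L show none of the motifs.

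Promoter stretches with these elements are printed for the 7 genes that hold them, because these elements are the known link between ATF6, XBP1 and the chaperone genes. Sequences are from RefSeq (GRCh38.p14) and read 5′ to 3′ on the strand of the gene, with matches in capitals. The motifs searched on both strands were ERSE (the ER stress response element, CCAAT and CCACG with any 9 bases between), ERSE-II (ATTGG and CCACG with any base between), an ATF6 site (TGACGTGG) and CARE (the ATF4 and C/EBP composite element, TGATGNAA). HSPA5 is at chr9:125241371-125241429 on the minus strand with 1 ERSE, HSP90B1 at chr12:103930196-103930359 on the plus strand with 2 ERSE, XBP1 at chr22:28800583-28800641 on the minus strand with 1 ERSE, and CRELD2 at chr22:49918534-49918592 on the plus strand with 1 ERSE. HYOU1 is at chr11:119057254-119057413 on the minus strand with 2 ERSE-II, HERPUD1 at chr16:56931946-56932055 on the plus strand with a CARE followed by an ERSE-II, and SDF2L1 at chr22:21642094-21642144 on the plus strand with 1 ERSE-II. In HYOU1 the ERSE-II farther from the start overlaps an ATF6 site. The RefSeq starts behind the printed stretches of HSP90B1, CRELD2, HERPUD1, SDF2L1 and XBP1 lie inside the wider gene intervals of GENCODE 29. The genes without an exact match in the 250 bases searched are DNAJB9 at chr7:108569568-108574850 on the plus strand, PDIA4 at chr7:149003062-149028641 on the minus strand and SEL1L at chr14:81471549-81533861 on the minus strand (GENCODE 29 on GRCh38). Elements elsewhere or with other letters were not searched.
HSPA5: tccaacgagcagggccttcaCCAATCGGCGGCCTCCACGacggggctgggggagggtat
HSP90B1: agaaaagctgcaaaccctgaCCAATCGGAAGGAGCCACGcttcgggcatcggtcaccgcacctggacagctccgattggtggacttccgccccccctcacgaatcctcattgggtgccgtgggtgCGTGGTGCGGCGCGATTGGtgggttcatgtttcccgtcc
XBP1: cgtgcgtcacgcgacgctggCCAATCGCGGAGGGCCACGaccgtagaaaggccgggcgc
CRELD2: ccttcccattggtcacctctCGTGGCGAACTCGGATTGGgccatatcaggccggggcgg
HYOU1: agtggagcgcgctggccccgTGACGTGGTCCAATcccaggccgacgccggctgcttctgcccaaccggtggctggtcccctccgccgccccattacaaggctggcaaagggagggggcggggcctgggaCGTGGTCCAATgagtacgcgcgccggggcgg
HERPUD1: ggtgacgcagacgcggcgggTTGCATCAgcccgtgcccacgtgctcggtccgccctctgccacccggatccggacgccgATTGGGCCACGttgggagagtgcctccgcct
SDF2L1: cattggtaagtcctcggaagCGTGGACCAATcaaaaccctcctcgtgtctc

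ERSE was found before 0.074% and ERSE-II before 0.0513% of the 35116 RefSeq starts searched, and either before 0.125%, against 7 of the 10 genes here. The elements are known from chaperone genes of this response, so that count is a description and not a finding of these data. The ATF6 site was found before 0.612% and CARE before 3.14% of the starts, and HYOU1 and HERPUD1 were the only genes of the 10 with these. Windows were found for all 10 genes, 12 in all, since XBP1 and PDIA4 have a pair each. A match describes the letters only. Of 23 other tested genes with ERSE or ERSE-II, 10 (43.5%) were higher and 6 (26.1%) lower in parental DTP than in parental libraries, against 45.6% higher and 22.4% lower among all 9215 tested genes with a window.

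The libraries held between 14947379 and 37989457 assigned fragments, and 3 fragments correspond to 0.079 to 0.201 counts per 1e6. All 8 squamous epithelial markers checked (KRT5, KRT14, KRT6A, TP63, SFN, DSG3, SOX2 and EPCAM) averaged at least 1 FPKM in every group, with summed levels of 5152 to 6016 FPKM in chemoresistant DTP, 4391 to 5135 in chemoresistant, 2641 to 3190 in parental DTP and 4259 to 4693 in parental libraries. Of 6 plasma cell markers, a secretory cell type rich in these chaperones, JCHAIN was at 0 in every chemoresistant DTP, chemoresistant and parental library, and only SDC1 and PRDM1 averaged 1 FPKM or more in any group; summed levels were 103 to 114, 110 to 120, 47.0 to 58.6 and 83.2 to 94.8 FPKM in chemoresistant DTP, chemoresistant, parental DTP and parental libraries. The summed levels of 6 fibroblast, 6 leukocyte and 4 endothelial markers reached at most 19.2, 2.78 and 1.14 FPKM in any library. Summed levels of 5 nuclear-retained RNAs were 47.7 to 67.8 FPKM in chemoresistant DTP, 38.6 to 62.7 in chemoresistant, 57.4 to 68.8 in parental DTP and 27.5 to 46.3 in parental libraries, and their part in the results was not tested. Chemoresistant DTP replicate 2 had the highest sum of FPKM over all genes (346165, against 306431 to 332958 in the other libraries). Its chi-square per gene, comparing fragment counts of library pairs, was 53.1 to 76.7 within its group. The rest of that group lay at 2.55 to 11.2 among themselves. Pairs with parental DTP replicate 5 or 6 reached 19.9 to 41.8, against 2.31 to 12.5 among replicates 1 to 4. Parental replicates 5 and 6 lay at 16.2 to 26.5 from parental replicates 1 to 4. Pairs of the chemoresistant group ran from 2.03 (replicates 5 and 6) to 31.6 (replicates 1 and 3). Changes of the 10 genes that gain or lose a call without chemoresistant DTP replicate 2 are given with and without it. In such bulk cultures, fewer cells expressing a gene and less of its RNA per cell cannot be told apart.

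Both DTP groups had more HSPA5 RNA than their own lines, but most of the other genes did not follow it in the same way in both lines. In the parental line, HERPUD1, XBP1, HSPA5, DNAJB9 and SEL1L rose and PDIA4, CRELD2 and SDF2L1 fell; HYOU1 and HSP90B1 did not pass the test. In the chemoresistant line, HSPA5, HYOU1, XBP1, SEL1L, HSP90B1, HERPUD1 and PDIA4 rose and none of the 10 fell. The chemoresistant cells already differed from parental cells before persistence, with 6.28 times the HERPUD1 level, 3.04 times the XBP1 level and 0.223 times the HYOU1 level (ratios of mean FPKM).

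**Figure D2:**
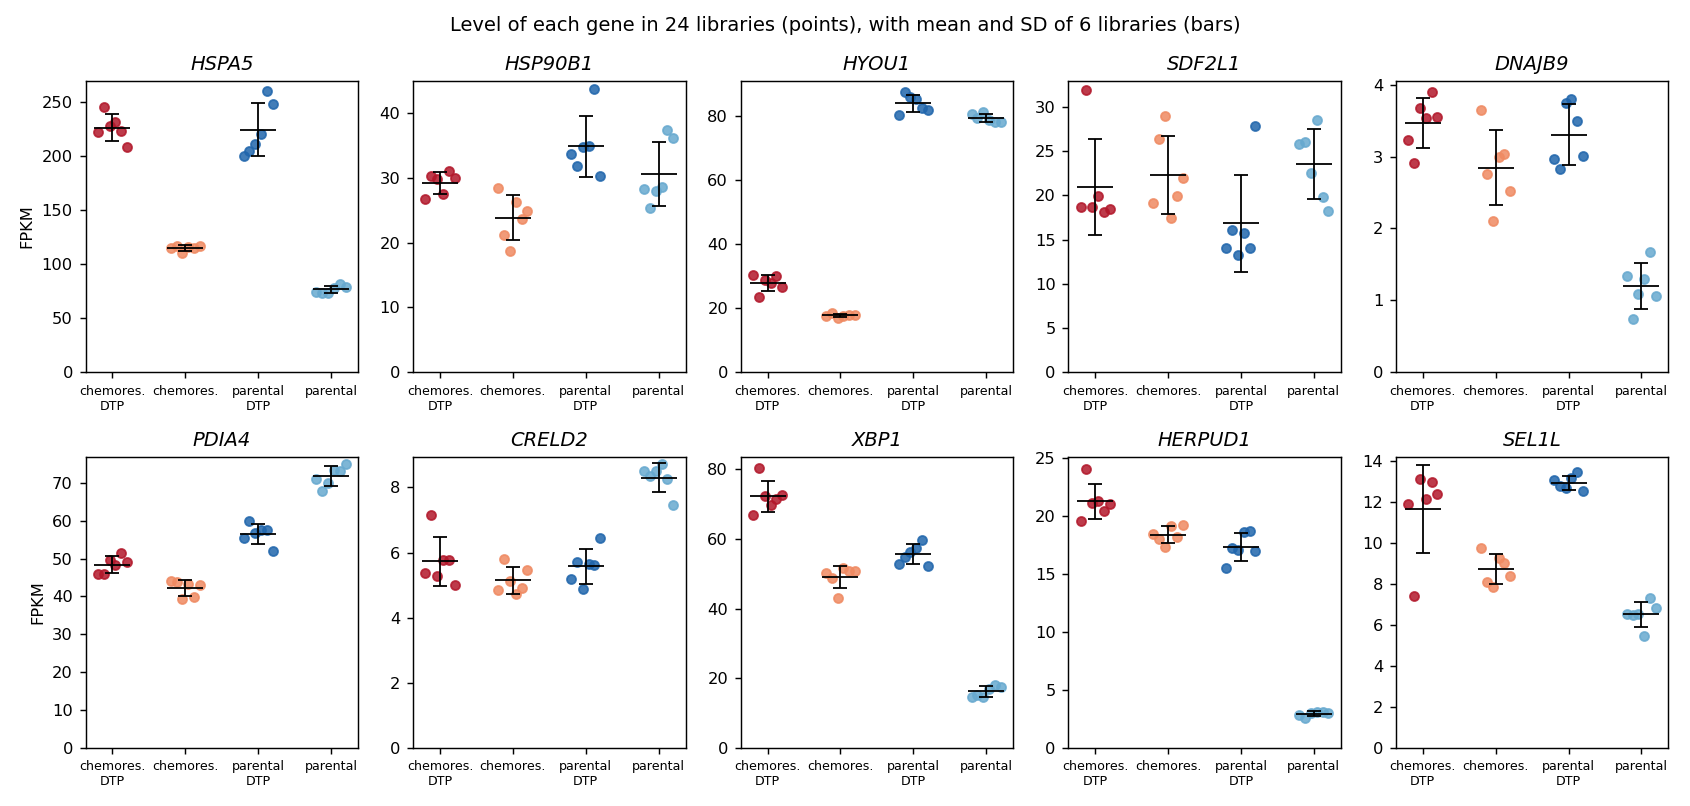
FPKM of the 10 genes in each of 24 libraries (points), with the mean and SD of the 6 libraries of each group (bars), for chemoresistant DTP, chemoresistant, parental DTP and parental libraries from left to right; every y axis is linear and starts at 0. HSPA5 is high in both DTP groups, HYOU1 is low in both chemoresistant groups, and HERPUD1 and XBP1 are lowest in the parental group.

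HSPA5, the HSP70 of the ER and the chaperone that holds the stress sensors inactive, had the highest FPKM of the 10 genes in both DTP groups. Its lowest, median and highest levels were 208, 225.5 and 246 FPKM in chemoresistant DTP, 110.4, 116 and 117 in chemoresistant, 200.5, 216 and 260.1 in parental DTP, and 73.0, 76.1 and 81.4 in parental libraries. The 2 DTP groups overlapped, every library of both lay above all chemoresistant libraries, and those lay above all parental libraries. The mean was 226 ± 12.3 FPKM in chemoresistant DTP against 115 ± 2.35 FPKM in chemoresistant libraries (SD, n = 6 each), a log2 fold change of 0.97 (SE 0.055, adjusted p = 5.08e-13). It was 224 ± 24.5 FPKM in parental DTP against 76.5 ± 3.39 FPKM in parental libraries (log2 fold change 1.53, SE 0.055, adjusted p = 3.03e-17). Here and below, fold changes are of FPKM + 1 on the log2 scale, tested with limma over 13729 genes with Benjamini-Hochberg adjustment and a threshold of 0.05. The chemoresistant line started 0.58 above the parental line on that scale (adjusted p = 8.13e-10), whereas the DTP groups differed by 0.02 (SE 0.055, adjusted p = 0.775), or by 0.11 (adjusted p = 0.0274) without parental DTP replicates 5 and 6. Those 2 replicates held the highest HSPA5 levels of the series, 260.1 and 248 FPKM.

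HSP90B1 (GRP94), the HSP90 of the ER, varied far less. The lowest, median and highest levels were 26.7, 29.9 and 31.1 FPKM in chemoresistant DTP, 18.7, 24.3 and 28.4 in chemoresistant, 30.3, 34.2 and 43.7 in parental DTP, and 25.4, 28.4 and 37.4 in parental libraries. Neighbouring groups in the order of means, from parental DTP through parental and chemoresistant DTP to chemoresistant, all overlapped. HSP90B1 rose by a log2 fold change of 0.29 in chemoresistant DTP over chemoresistant libraries (SE 0.099, adjusted p = 0.0167), a call lost without chemoresistant replicate 3 (0.23, adjusted p = 0.0549). In parental DTP against parental libraries the log2 fold change was 0.19 (SE 0.099, adjusted p = 0.102). It was called without parental replicate 5 (0.24, adjusted p = 0.0318) or without parental replicate 6 (0.24, adjusted p = 0.0435). Those replicates had the highest HSP90B1 levels of the parental group, 37.4 and 36.1 FPKM, and negative GC trends (-0.54 and -0.559, described below). The change was 0.00 (adjusted p = 0.972) with relative log expression scaling. With the GC trend of each library removed it was 0.01 (adjusted p = 0.925). HSP90B1 was lower in chemoresistant than in parental libraries (-0.35, adjusted p = 0.00282).

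HYOU1 (GRP170), a large HSP70-like chaperone that also exchanges nucleotide on HSPA5, separated the lines in both states, and the states in the chemoresistant line. HYOU1 had lowest, median and highest levels of 23.6, 28.2 and 30.4 FPKM in chemoresistant DTP, 17.0, 17.7 and 18.5 in chemoresistant, 80.6, 84.0 and 87.5 in parental DTP, and 78.1, 79.3 and 81.3 in parental libraries. All chemoresistant DTP and chemoresistant libraries lay below all parental DTP and parental libraries, and only the parental DTP and parental groups overlapped. The mean was 17.7 ± 0.475 FPKM in chemoresistant against 79.5 ± 1.29 FPKM in parental libraries (n = 6 each), a log2 fold change of -2.10 (SE 0.044, adjusted p = 2.22e-22). Between the DTP groups the log2 fold change was -1.56 (adjusted p = 1.96e-19). Within the chemoresistant line HYOU1 rose by 0.62 in DTP libraries (adjusted p = 3.97e-11). In parental DTP against parental libraries it differed by 0.08 (SE 0.044, adjusted p = 0.124), a value whose sign turned to -0.11 (adjusted p = 0.0368) with relative log expression scaling. Without chemoresistant DTP replicate 2, a library of neither group that enters the shared estimate of spread, HYOU1 was called there at the same 0.08 (adjusted p = 0.0285).

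SDF2L1, which works with HSPA5 and the J-protein DNAJB11 to keep clients from aggregating, did not separate any groups. Levels of SDF2L1 (lowest, median and highest) were 18.2, 18.7 and 31.9 FPKM in chemoresistant DTP, 17.5, 21.0 and 28.96 in chemoresistant, 13.2, 14.9 and 27.9 in parental DTP, and 18.3, 24.2 and 28.6 in parental libraries. A chemoresistant DTP library (replicate 2) and a parental DTP library (replicate 6) stood well above the other 5 of their groups. SDF2L1 was lower in parental DTP than in parental libraries by a log2 fold change of -0.49 (SE 0.16, adjusted p = 0.0112), or -0.64 (adjusted p = 0.000388) without parental DTP replicate 6. Chemoresistant DTP and chemoresistant libraries differed by -0.09 (SE 0.16, adjusted p = 0.662), or by -0.22 (adjusted p = 0.239) without chemoresistant DTP replicate 2. SDF2L1 has the highest GC content of the 10 genes, 65.5%, and libraries differed in a GC trend. That trend, the Spearman correlation across 13169 genes between a library's deviation from its group mean and GC content, ran from -0.64 to 0.655. Chemoresistant replicates 2 and 3, with trends of 0.655 and 0.632, had 26.4 and 28.96 FPKM of SDF2L1, and chemoresistant replicates 1 and 4, with -0.64 and -0.629, had 19.1 and 17.5 FPKM. Parental replicates 5 and 6, with -0.54 and -0.559, had 19.8 and 18.3 FPKM, against 22.6 to 28.6 FPKM in the rest of the group at 0.183 to 0.488. Parental DTP replicate 6 had the highest trend of its group (0.534), and replicate 2, the next at 0.373, had 16.1 FPKM. In the chemoresistant DTP group, replicate 1 with the highest trend of 0.4 had 18.65 FPKM. That lay within the 18.15 to 18.74 FPKM of replicates 3, 5 and 6 at trends of -0.348 to -0.483. Chemoresistant DTP replicate 2 with a trend of 0.274 had 31.9 FPKM. With the trend removed, the change in parental DTP libraries was -0.55 (adjusted p = 0.000718), and chemoresistant libraries became lower than parental ones (-0.35, adjusted p = 0.0182, against -0.08, adjusted p = 0.672, before).

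**Figure D3:**
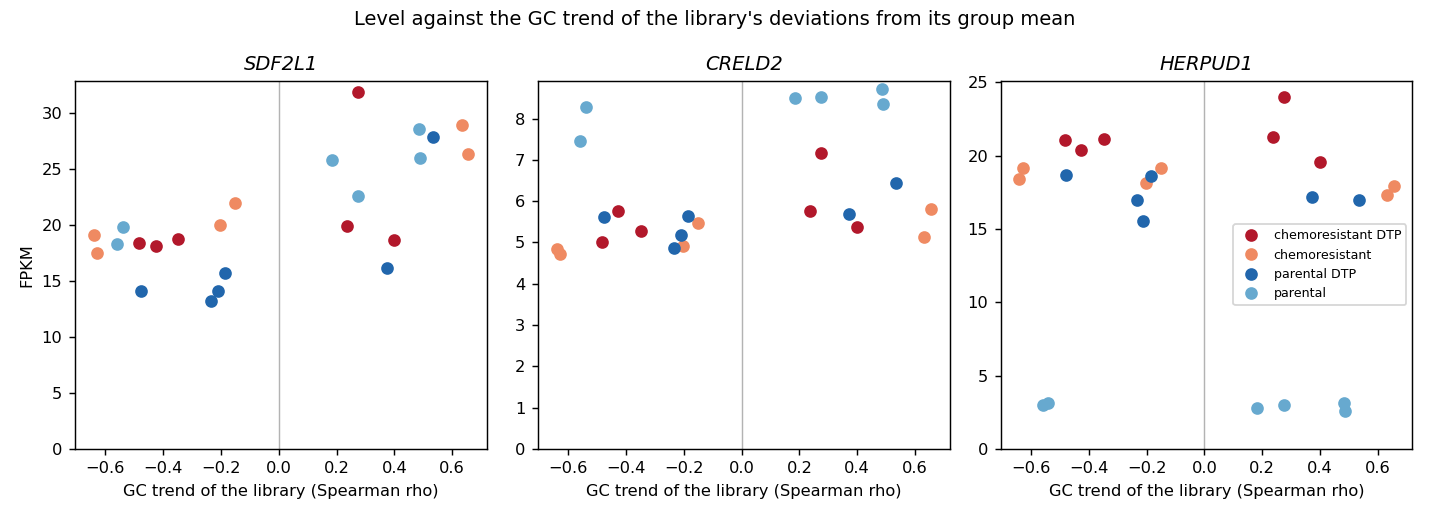
FPKM of SDF2L1, CRELD2 and HERPUD1 in each library (y axis, linear, from 0) against the library's GC trend (x axis, Spearman rho of its deviation from the group mean with gene GC content), coloured by group. SDF2L1 is highest in its group in chemoresistant replicates 2 and 3 (26.4 and 28.96 FPKM), which have positive trends. It is lowest in its group in parental replicates 5 and 6, which have negative trends. Chemoresistant DTP replicate 1, with a trend of 0.4, lies at 18.65 FPKM beside the libraries with negative trends. HERPUD1 keeps its group levels across the trend.

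DNAJB9 (ERdj4), a J-protein that hands clients to HSPA5 and restrains IRE1, was the least abundant of the 10 genes in FPKM, with 31 to 367 fragments per library. Lowest, median and highest levels of DNAJB9 were 2.91, 3.55 and 3.90 FPKM in chemoresistant DTP, 2.10, 2.88 and 3.66 in chemoresistant, 2.83, 3.25 and 3.81 in parental DTP, and 0.733, 1.20 and 1.67 in parental libraries. The parental group stood below the other 3, which overlapped one another. DNAJB9 rose by a log2 fold change of 0.98 in parental DTP over parental libraries (SE 0.095, adjusted p = 3.11e-09), where the ratio of mean FPKM was 2.76, since adding 1 understates changes of low genes. In chemoresistant DTP against chemoresistant libraries it differed by 0.22 (SE 0.095, adjusted p = 0.0538). It passed the threshold there in 7 of the alternative settings, among them leaving out chemoresistant DTP replicate 2 (0.26, adjusted p = 0.0276) or chemoresistant replicate 1 (0.28, adjusted p = 0.0156). DNAJB9 shares genomic positions with THAP5 and PNPLA8 on the opposite strand, which reached 3.24 and 3.32 FPKM, and the sources used here do not say whether counting used strand, so their reads cannot be told apart where they overlap.

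PDIA4 (ERp72), a disulphide isomerase, and CRELD2, an ER protein with isomerase activity, went against HSPA5 in the parental line. PDIA4 had lowest, median and highest levels of 45.9, 48.6 and 51.6 FPKM in chemoresistant DTP, 39.3, 43.1 and 44.2 in chemoresistant, 52.1, 57.2 and 59.9 in parental DTP, and 67.9, 72.1 and 75.1 in parental libraries, with no overlap between any groups. CRELD2 had lowest, median and highest levels of 5.02, 5.57 and 7.16 FPKM in chemoresistant DTP, 4.73, 5.03 and 5.81 in chemoresistant, 4.87, 5.63 and 6.44 in parental DTP, and 7.46, 8.43 and 8.71 in parental libraries. Its parental group lay above the other 3, which overlapped. In parental DTP against parental libraries PDIA4 fell by a log2 fold change of -0.34 (SE 0.041, adjusted p = 1.09e-07) and CRELD2 by -0.50 (SE 0.065, adjusted p = 3.21e-07). In chemoresistant DTP against chemoresistant libraries PDIA4 rose by 0.19 (SE 0.041, adjusted p = 0.000391), and CRELD2 differed by 0.12 (SE 0.065, adjusted p = 0.118). That CRELD2 value was 0.21 (adjusted p = 0.0066) with the GC trend removed and 0.07 (adjusted p = 0.318) without chemoresistant DTP replicate 2. Both were lower in chemoresistant than in parental libraries, PDIA4 by -0.75 and CRELD2 by -0.60 (adjusted p = 2.08e-14 and 9.64e-09). CRELD2 overlaps ALG12 on the opposite strand, which reached 5.05 FPKM.

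XBP1, the transcription factor that IRE1 activates by splicing its mRNA, was measured as a gene total, so spliced and unspliced forms cannot be told apart. Its lowest, median and highest levels were 66.99, 71.9 and 80.4 FPKM in chemoresistant DTP, 43.1, 50.4 and 51.7 in chemoresistant, 52.3, 55.5 and 59.8 in parental DTP, and 14.6, 16.1 and 18.1 in parental libraries. No groups overlapped. XBP1 rose by a log2 fold change of 1.72 in parental DTP over parental libraries (SE 0.057, adjusted p = 6.37e-18), 3.44 times in mean FPKM. It rose by 0.55 in chemoresistant DTP over chemoresistant libraries (adjusted p = 2.84e-08) and was 1.55 higher in chemoresistant than in parental libraries (adjusted p = 9.62e-18).

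HERPUD1, a membrane protein that organises the HRD1 ubiquitin ligase for ER-associated degradation, gave the largest change of the 10 genes in parental DTP against parental libraries. Its lowest, median and highest levels were 19.6, 21.1 and 24.02 FPKM in chemoresistant DTP, 17.3, 18.3 and 19.2 in chemoresistant, 15.5, 17.1 and 18.7 in parental DTP, and 2.55, 3.00 and 3.12 in parental libraries. The parental libraries lay far below the others, the chemoresistant and parental DTP groups overlapped, and the chemoresistant DTP group lay above both. The mean was 17.3 ± 1.19 FPKM in parental DTP against 2.93 ± 0.222 FPKM in parental libraries (n = 6 each), a log2 fold change of 2.22 (SE 0.05, adjusted p = 4.22e-21). Chemoresistant libraries, at 18.4 ± 0.718 FPKM, were 2.30 above parental ones (adjusted p = 3.67e-22), a larger change than that of HYOU1 (-2.10). It was a smaller one with relative log expression scaling (2.15 against -2.28) or with the GC trend removed (2.19 against -2.27). Adding 1 understates the HERPUD1 change, since its parental level was low. In mean FPKM, chemoresistant libraries had 6.28 times the parental HERPUD1 level, and parental libraries 4.48 times the chemoresistant HYOU1 level. Chemoresistant DTP libraries lay 0.20 above chemoresistant ones for HERPUD1 (adjusted p = 0.002).

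SEL1L, the adaptor of HRD1 in the ER membrane, had lowest, median and highest levels of 7.40, 12.3 and 13.1 FPKM in chemoresistant DTP, 7.83, 8.71 and 9.75 in chemoresistant, 12.5, 12.9 and 13.4 in parental DTP, and 5.46, 6.51 and 7.31 in parental libraries. The chemoresistant DTP range reached into the chemoresistant and parental DTP ranges, through replicate 2 at 7.40 FPKM in the case of the chemoresistant group. SEL1L rose by a log2 fold change of 0.89 in parental DTP over parental libraries (SE 0.091, adjusted p = 7.06e-09). It rose by 0.36 in chemoresistant DTP over chemoresistant libraries (SE 0.091, adjusted p = 0.00195), or by 0.48 (adjusted p = 1.39e-07) without replicate 2. Chemoresistant libraries were 0.37 above parental ones (adjusted p = 0.000706).

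**Figure D4:**
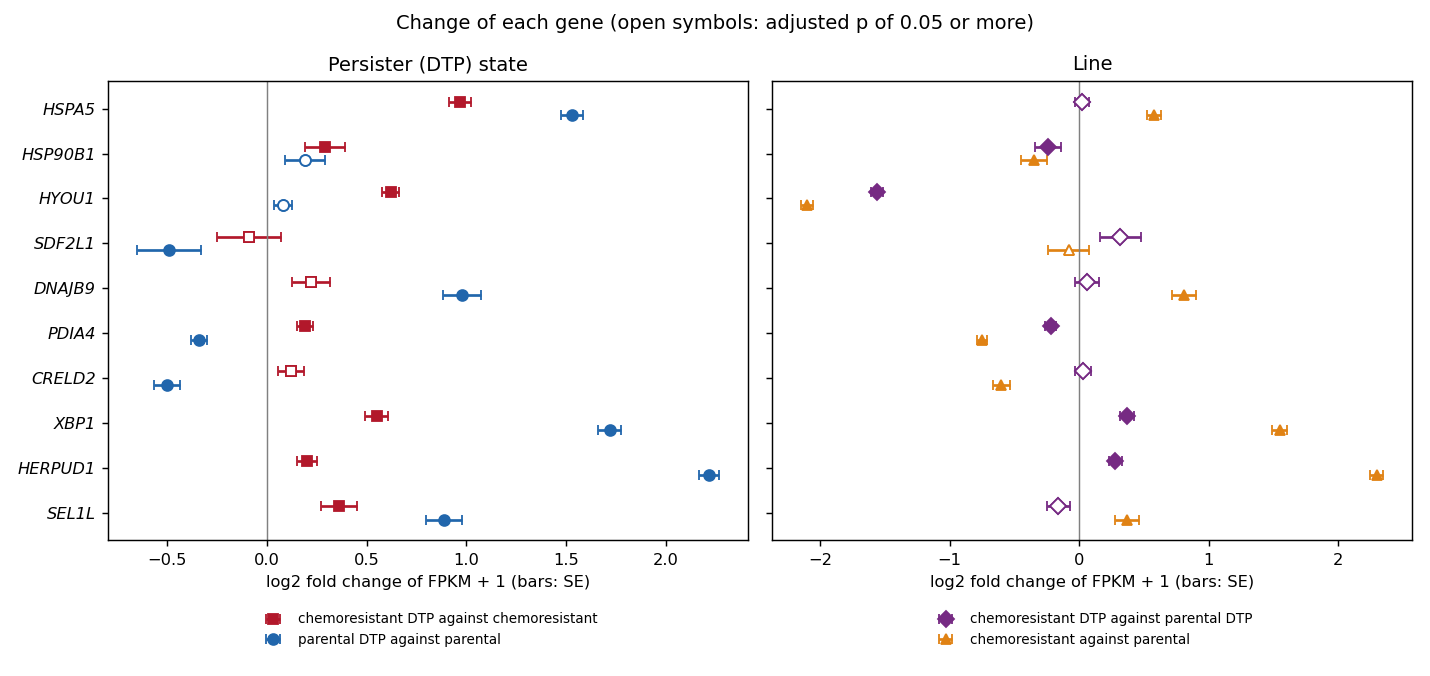
Log2 fold change of FPKM + 1 for each of the 10 genes (x axis; bars are SE; open symbols are changes that did not pass the threshold), for the DTP state in each line on the left and for the line in each state on the right. HERPUD1 reaches 2.22 in parental DTP libraries and 0.20 in chemoresistant DTP libraries, and HYOU1 lies at -2.10 and -1.56 in the chemoresistant line in the 2 states.

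Set against the whole transcriptome, the 10 genes were called about as often as other genes in the parental line. In parental DTP against parental libraries 8 of 10 were called, where 65.5% of all tested genes were: 5 rose and 3 fell, where 45.8% of all tested genes rose and 19.7% fell. HERPUD1, XBP1 and HSPA5 rose by at least 1 on the log2 scale, 3 of 10, where 2.76% of all tested genes did. Adding 1 understates changes of low genes, so that share is not like for like. At the same cut 0 of the 10 rose or fell in chemoresistant DTP against chemoresistant libraries. In chemoresistant against parental libraries 2 rose and 1 fell by that much. The shares of all tested genes at this cut were not computed for those 2 comparisons. The libraries of the 2 groups did not overlap for 7 of the 10, where that held for 45.8% of all tested genes, and the median log2 fold change was 0.54 against 0.14 for all tested genes. In chemoresistant DTP against chemoresistant libraries 7 rose and 0 fell, where 48% of all tested genes were called, 20.5% as higher and 27.4% as lower. The median there was 0.26 against -0.02 for all tested genes, and 5 of the 10 did not overlap, where 27.8% of all tested genes did not. SDF2L1 (-0.09) was the only one of the 10 below 0, so that limma at an unadjusted p under 0.05 also gave 0 falls, as did limma-voom on recovered fragments. In chemoresistant against parental libraries 5 rose and 4 fell, where 77.5% of all tested genes were called, 48.2% as higher and 29.4% as lower, and 8 of the 10 did not overlap, where 61.8% of all tested genes did not. In chemoresistant DTP against parental DTP libraries 2 rose and 3 fell, where 61.9% of all tested genes were called, 29.5% as higher and 32.3% as lower, and 4 of the 10 did not overlap, where 36.2% of all tested genes did not. These comparisons share groups of libraries and are not independent. Relative log expression scaling moved the median of all genes in parental DTP against parental libraries to 0.00 and the split of all calls to 4477 higher and 4413 lower, against 0.14, 6283 and 2711 before; the 10 genes then gave 5 higher and 4 lower. In chemoresistant against parental libraries the same scaling gave 5369 higher and 5288 lower in place of 6614 and 4031, and 5 higher and 4 lower among the 10 genes, as before.

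The change in the DTP state differed between the lines for 8 of the 10 genes, where it differed for 63.8% of all tested genes, with 20.5% higher and 43.4% lower in the chemoresistant line. With relative log expression scaling that split of all calls was 4252 higher and 4565 lower, against 2812 and 5952 before. The change was smaller in the chemoresistant line for HERPUD1 (a difference of log2 fold changes of -2.02, SE 0.07, adjusted p = 3.88e-17), XBP1 (-1.18, SE 0.08, adjusted p = 7.33e-12), DNAJB9 (-0.75, SE 0.13, adjusted p = 2.99e-05), HSPA5 (-0.56, SE 0.077, adjusted p = 9.18e-07) and SEL1L (-0.53, SE 0.13, adjusted p = 0.00088). It was more positive in the chemoresistant line for CRELD2 (0.63, SE 0.092, adjusted p = 2.11e-06), HYOU1 (0.54, SE 0.062, adjusted p = 5.93e-08) and PDIA4 (0.53, SE 0.057, adjusted p = 2.13e-08). HSP90B1 (0.11, SE 0.14, adjusted p = 0.514) and SDF2L1 (0.39, SE 0.23, adjusted p = 0.139) did not pass, and both passed with relative log expression scaling (0.31, adjusted p = 0.0271, and 0.60, adjusted p = 0.0442). The 5 genes with the smaller change were also those already higher in chemoresistant than in parental libraries, and these comparisons share both groups.

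Levels of HYOU1 and PDIA4 were also set against HSPA5. HSPA5 is the denominator of both ratios, so its own change enters them. The level of HYOU1 as a share of HSPA5, in FPKM, was 0.124 ± 0.0147 in chemoresistant DTP and 0.154 ± 0.00269 in chemoresistant libraries, and 0.379 ± 0.0446 in parental DTP and 1.04 ± 0.0605 in parental libraries (SD, n = 6 each). The PDIA4 level was 0.214 ± 0.0178 of HSPA5 in chemoresistant DTP and 0.368 ± 0.0128 in chemoresistant libraries, and 0.255 ± 0.0325 in parental DTP and 0.939 ± 0.0219 in parental libraries. The 4 ranges of PDIA4 per HSPA5 did not separate the DTP groups from each other (0.187 to 0.236 in chemoresistant DTP and 0.2099 to 0.293 in parental DTP) but separated both from their lines. The levels of the 10 genes summed to 467 ± 18.5 FPKM in chemoresistant DTP, 305 ± 8.36 in chemoresistant, 511 ± 30.5 in parental DTP and 317 ± 9.05 in parental libraries. Such levels depend on the gene lengths behind FPKM: these were 13092 bases for HSP90B1 and 6530 for HSPA5, against 3032 and 3908 bases for their longest GENCODE 29 transcripts. Per kilobase of the longest transcript, HYOU1, HSP90B1 and HSPA5 stood at 136 ± 2.19, 132 ± 21.2 and 128 ± 5.67 in parental libraries. A ratio of mean FPKM of a gene does not depend on its length, whereas a fold change of FPKM + 1 does, since a longer length gives a lower FPKM.

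Genes whose levels followed the 10 most closely over the 24 libraries are given as a description, since 4 group means carry most of each correlation. Among 6902 protein-coding genes, HSPA5 was most like the cytokine LIF and the aspartate aminotransferase GOT1 (Pearson r of 0.981 each), followed by PPP1R15A (0.973), which brings a phosphatase to the PERK target eIF2α, the transcription factor JUN (0.97) and the chemokine CXCL8 (0.961). LIF had 15.1 FPKM in chemoresistant DTP, 5.98 in chemoresistant, 16.1 in parental DTP and 2.73 in parental libraries, the order of HSPA5 but for the 2 DTP groups. HERPUD1 was most like GABARAPL1, an autophagy adaptor (0.996), HYOU1 most like the transcription factor FOXA2 (0.996), XBP1 most like the cysteine tRNA ligase CARS1 (0.995) and PDIA4 most like the mitotic kinesin KIF4A (0.987). HSP90B1 was most like NAP1L1, a histone chaperone (0.983), DNAJB9 most like MIA2, which works in ER export (0.963), CRELD2 most like BOP1, a ribosome assembly factor (0.962), SEL1L most like the aryl hydrocarbon receptor AHR (0.952) and SDF2L1 most like PTDSS2, a phosphatidylserine synthase (0.923).

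Counts of the other lists are read against the shares of all tested genes. Those were 45.8% higher and 19.7% lower in parental DTP against parental libraries, and 20.5% and 27.4% in chemoresistant DTP against chemoresistant libraries. With relative log expression scaling, 4477 of the 13729 tested genes were higher and 4413 lower in the parental comparison. In the chemoresistant comparison 3248 were higher and 3494 lower with that scaling. Lists were not tested against each other. All 13 tested genes of the PERK and ATF4 arm rose in parental DTP over parental libraries (median log2 fold change 1.73, against 0.14 for all tested genes), and 7 of 13 rose and 0 fell in chemoresistant DTP over chemoresistant libraries (median 0.14 against -0.02). In the parental comparison CHAC1, which degrades glutathione, changed by 3.67, the pseudokinase TRIB3 by 3.12 and the transcription factor ATF3 by 2.79; CHAC1 had 21.4 to 27.8 FPKM in parental DTP and 0.837 to 1.46 FPKM in parental libraries. In the chemoresistant comparison PPP1R15A changed by 1.02, ATF3 by 1.01 and CHAC1 by 0.52, and DDIT3 (CHOP), a death-associated factor of this arm named here after its values were seen, differed by 0.09 (adjusted p = 0.497). Its levels were 26.5 to 37.5 FPKM in chemoresistant DTP, 24.1 to 29.5 in chemoresistant, 21.9 to 34.7 in parental DTP and 2.95 to 4.56 in parental libraries. The difference between the lines was below 0 and passed for all 13, and for 12 of 13 with relative log expression scaling, where ATF4 itself did not pass (-0.19). In chemoresistant against parental libraries all 13 rose (median 1.58).

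Of 10 tested sensors and their processing factors, 6 rose and 1 fell in parental DTP over parental libraries (median 0.26), a split that became 4 and 4 with relative log expression scaling. The ATF6 relative CREB3L2 (1.24), the sensor genes ERN1 (0.83) and ATF6 (0.79) led the rises, and RTCB, the ligase that joins spliced XBP1 mRNA, fell (-0.16). ERN1 had 2.33 to 2.57 FPKM in parental DTP and 0.795 to 1.07 FPKM in parental libraries. In chemoresistant DTP over chemoresistant libraries 2 rose, TMEM33 (0.35) and CREB3 (0.29), and 2 fell, among them MBTPS1, a protease that cuts ATF6 (-0.29).

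In the list of HSP70 cofactors of the ER, 8 of 10 rose and 0 fell in chemoresistant DTP over chemoresistant libraries (median 0.28). The rises were led by HSPA13 (0.60), an HSP70 family member counted in this list, SEC63 (0.49) and the reductase DNAJC10 (0.36). The count was 8 and 0 with relative log expression scaling too. In parental DTP over parental libraries 6 rose and 1 fell, or 4 and 4 with that scaling; HSPA13 (1.03), the nucleotide exchange factor SIL1 (0.51) and SEC63 (0.48) rose and SDF2, a relative of SDF2L1, fell (-0.25). Translocon and signal peptidase genes rose in 9 of 16 with 0 falls in chemoresistant DTP over chemoresistant libraries (median 0.26), led by SSR3 (0.53), SEC61B (0.42) and SPCS2 (0.41). In parental DTP over parental libraries 1 rose, SEC11A (0.49), and 2 fell, SRPRA (-0.28) and SSR3 (-0.24), or 1 and 9 with relative log expression scaling.

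Disulphide isomerases and oxidases split 7 higher and 5 lower of 17 in parental DTP against parental libraries, or 5 and 9 with relative log expression scaling. The oxidase ERO1B (0.60) and ERP29 (0.50) rose, and TMX1 (-0.43) and PDIA5 (-0.26) fell. In chemoresistant DTP against chemoresistant libraries 3 rose, among them TMX2 (0.21), and 2 fell, QSOX1 (-0.34) and TMX4 (-0.21). Among 9 lectin chaperones and glucose-trimming enzymes, CLGN (0.88) was among 2 that rose in parental DTP libraries and the calcium-binding chaperone CALR (-0.63) and the glucosidase MOGS (-0.30) were the 2 that fell. CALR had 122 to 142 FPKM in parental DTP and 195 to 219 FPKM in parental libraries. With relative log expression scaling 1 of the 9 rose and 6 fell. In chemoresistant DTP libraries CANX, the membrane-bound partner of CALR, rose (0.31) and MOGS was lower (-0.12, adjusted p = 0.0497), a call lost with that scaling.

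ER-associated degradation genes split 11 higher and 7 lower of 22 in parental DTP against parental libraries, or 7 and 8 with relative log expression scaling. HERPUD2 (0.74) and the mannosidase-like EDEM1 (0.62) rose, and the extraction ATPase VCP (-0.66) and its cofactors NPLOC4 (-0.37) and UFD1 (-0.32) fell. In chemoresistant DTP against chemoresistant libraries 4 rose and 4 fell; NPLOC4 (0.33) and VCP (0.24) rose and FOXRED2 (-0.48), an ER flavoprotein, fell. Of 17 genes of ER export and retrieval, 4 rose and 3 fell in parental DTP libraries, or 3 and 8 with that scaling, with SEC24D (0.63), ARFGAP3 (0.47) and KDELR3 (0.29) rising and SEC13 (-0.27), TMED9 (-0.26) and KDELR1 (-0.17) falling. In chemoresistant DTP libraries 5 rose and 3 fell, with ARFGAP3 at 0.48, TMED10 at -0.36 and KDELR3 at -0.34. Among 8 other ER proteins of the response, 3 rose and 1 fell in parental DTP libraries, or 2 and 5 with that scaling. STC2, a secreted glycoprotein, rose by 2.11 there and by 0.53 in chemoresistant DTP libraries, where 5 of the 8 rose and 0 fell. Of 5 tested ER-phagy receptors 3 rose and 0 fell in parental DTP libraries (CALCOCO1 at 0.80, RETREG1 and RTN3 at 0.43 each). In chemoresistant DTP libraries 1 rose, ATL3 (0.26), and 2 fell, CALCOCO1 (-0.29) and TEX264 (-0.22); the TEX264 call was lost with relative log expression scaling.

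**Figure D5:**
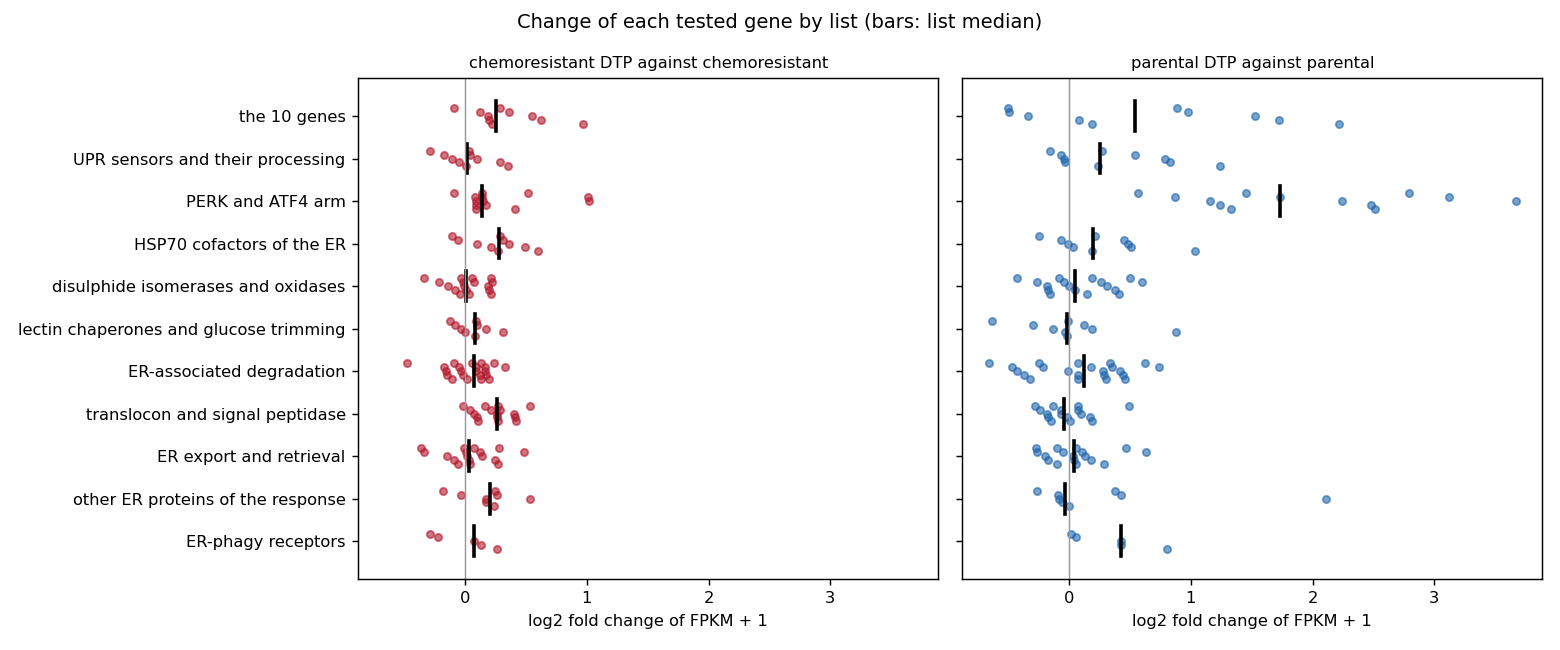
Log2 fold change of FPKM + 1 (x axis) of each tested gene (points) by list, with list medians as bars, in chemoresistant DTP against chemoresistant libraries on the left and in parental DTP against parental libraries on the right. The PERK and ATF4 arm has a median of 0.14 on the left and 1.73 on the right, the 10 genes have medians of 0.26 and 0.54, and the medians of the other lists lie between 0.01 and 0.28 on the left and between -0.05 and 0.43 on the right.

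In chemoresistant against parental libraries, where 48.2% of all tested genes were higher and 29.4% lower, lectin chaperones and translocon genes had more falls than rises. Among 9 tested lectin chaperones and trimming enzymes 1 rose and 6 fell (median -0.34, against 0.14 for all tested genes), with CALR at -0.76 and CANX at -0.58. Among 16 translocon and signal peptidase genes 1 rose, 8 fell and 7 were not called (median -0.21), with SPCS2, a signal peptidase subunit, at -1.40 and SEC61A1, the channel itself, at -0.53. With relative log expression scaling 1 rose and 7 fell, and 1 rose and 13 fell, where 5369 tested genes rose and 5288 fell. The HSP70 cofactors split 3 higher and 4 lower, with SIL1 at 0.82 and DNAJB11, the J-protein partner of SDF2L1, at -0.47. The genes named in the last 4 sentences were chosen after their values were seen.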

How the data were processed

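The authors deposited 1 table of FPKM per gene for 24 RNA-seq libraries of total RNA (TRIzol, standard Illumina libraries, per the labels' protocols) and, per the submitters' processing notes, used GRCh38. The sources used here name no aligner, counter, annotation or strandedness. Of the table's lines, 23 held annotation text without values. FPKM values of 41098 of 41101 genes above 0 (99.99%) were whole fragments to within 0.02 fragments or a relative 5e-08 and gave the library totals. Of 61251 gene IDs 58337 matched GENCODE 29, which gave GC content, overlaps and gene positions.

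log2(FPKM + 1) was fitted with limma 3.58.1 (mean-variance trend, R 4.3.3), with 4 group means over 24 libraries, for 13729 genes averaging at least 1 FPKM in at least 1 group; p-values were two-sided and Benjamini-Hochberg adjusted, and a gene is called under 0.05. The step was tested on simulated data. Of the other lists, 3 genes with the largest called change in each DTP comparison and those against most of their list could be named. For likeness, the 5 genes with the highest correlation with HSPA5 and the highest for each other member were named. The 10 genes and all lists were chosen with earlier results of these data known. Alternatives varied the pseudocount, filter, scaling, libraries, test and GC trend. The floor in fragments covers counting error only. SDs and SEs measure the spread between libraries.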

Additional observations from a re-analysis of the deposited data

Results flagged for a closer look

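Of 40 sets of 6 libraries (10 genes in 4 groups), 8 had a library farther from the others than Dixon's limit for 6 values, where chance flags about 1 in 20 sets. Chemoresistant DTP replicate 2 was the lowest of its group for SEL1L (7.40 FPKM) and the highest for SDF2L1 (31.9 FPKM) and CRELD2 (7.16 FPKM). Chemoresistant replicate 3 was the lowest of its group for HSPA5 (110.4 FPKM) and XBP1 (43.1 FPKM). Parental DTP replicate 5 was the highest for HSP90B1 (43.7 FPKM), parental DTP replicate 6 the highest for SDF2L1 (27.9 FPKM) and parental replicate 6 the lowest for CRELD2 (7.46 FPKM).

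The DTP change, on the log2 scale, differed between the chemoresistant and the parental line in limma's test of the difference for 8 genes: HSPA5 (-0.56), DNAJB9 (-0.75), XBP1 (-1.18), SEL1L (-0.53) and HERPUD1 (-2.02) changed less in the chemoresistant line, and HYOU1 (0.54), PDIA4 (0.53) and CRELD2 (0.63) had a more positive change there.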

How the results depend on the processing

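Over all alternatives run, the DTP changes of HSPA5, XBP1, HERPUD1 and SEL1L kept their direction and call in both lines. With 1 library left out, called members numbered 8 to 9 in parental DTP against parental (5 to 6 higher, 3 lower), 6 to 8 in chemoresistant DTP against chemoresistant (all higher), 9 in chemoresistant against parental (5 higher, 4 lower), 4 to 6 in chemoresistant DTP against parental DTP (2 to 3 higher, 2 to 3 lower) and 8 to 9 in the difference between the lines (3 to 4 higher, 5 lower). Members higher in chemoresistant DTP than in parental DTP numbered 4 in place of 2 without parental DTP replicates 5 and 6. Members with a more positive change in the chemoresistant line numbered 5 in place of 3 with relative log expression scaling, with limma-voom on recovered fragments and with the GC trend removed; the cause was not tested. The HYOU1 change in parental DTP libraries reversed to -0.11 with relative log expression scaling, whose construction sets the median of all genes near 0. HSP90B1 in chemoresistant DTP against parental DTP (-0.24, adjusted p = 0.0393) lost its call without chemoresistant DTP replicate 1 or 4 or parental DTP replicate 3, 4 or 5, with no filter and without parental DTP replicates 5 and 6. The limma-voom and GC alternatives were chosen after seeing the data; the planned edgeR and DESeq2 tests were not run, as the deposited unit is FPKM. Same-numbered libraries did not vary together (correlations -0.385 to 0.403, over 0.1 in 12 of 36 pairs), and a fit with the replicate block gave 8 called members in place of 7 in chemoresistant DTP against chemoresistant, through DNAJB9 (0.22, adjusted p = 0.028), and changed no other call.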
